A study of Mus musculus with 4 samples.

Results

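The endoplasmic reticulum (ER) folding, unfolded protein response (UPR) and ER-associated degradation (ERAD) genes form a set of 40 genes, named for their known roles, out of 17478 genes listed in the tables. All 40 were listed in each library and all 40 passed the filter on low counts. Messenger RNA was sequenced from mouse CD4+ T cells of 2 genotypes. Both came from C57BL/6 mice aged 6 to 8 weeks. The Bfar knockout cells (2 libraries) carried the genotype BFAR-/-, from mice described as T cell-conditional for the deficiency; the sources used here give neither the Cre driver nor the deleted part of the gene. The wild-type cells (2 libraries) were the controls. In both groups naive CD4+CD44loCD62Lhi cells were sorted from lymph nodes and spleen, stimulated with antibodies to CD3 and CD28, and kept for 3 days under Th9 conditions, which drive secretion of interleukin 9.

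Proteins bound for secretion or membranes enter the ER through the translocon, fold there with the help of chaperones and disulfide isomerases, and are sent back to the cytosol for destruction by ERAD when folding fails. When unfolded chains build up, the UPR sensors IRE1, PERK and ATF6 raise chaperone and ERAD gene expression and slow translation. Activated T cells expand this system as they grow and secrete cytokines, and the product of Bfar is itself an ER membrane protein, a ubiquitin ligase with a RING domain.

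The libraries held 19058009 to 19782923 expected counts, and a member held between 204 and 15184 of them. Bfar had 8.44 and 7.79 CPM (counts relative to the library total) in the knockout libraries, against 36.4 and 32.9 CPM in the wild-type libraries, which fits the labels. The 8 CD4 T cell markers listed summed to 2352 and 2317 CPM in knockout cells and 2170 and 2193 CPM in wild-type cells. Of these markers 4 rose and 1 fell, or 62.5% called against 26.8% of all genes tested. Cd4 had 702 and 671 CPM in knockout cells, against 592 and 581 CPM in wild-type cells. Cd5 had 251 and 262.5 CPM in knockout cells, against 295 and 296 CPM in wild-type cells. The CD8 T cell list summed to 10 to 11.6 CPM. The 4 genes of the Th9 culture list summed to 5708 and 5769 CPM in knockout cells and 5601 and 5476 CPM in wild-type cells, and of these 1 rose and 1 fell. Within it Il9 had 238 and 270.1 CPM in knockout cells, against 536 and 505 CPM in wild-type cells, while Il2ra had 3614 and 3589.8 CPM in knockout cells, against 3289 and 3167 CPM in wild-type cells. Of the plasma and B cell list, whose cells are rich in ER, 7 of 10 genes were listed and they summed to 27.7 and 25.7 CPM in knockout cells and 38.9 and 38.1 CPM in wild-type cells. Most of that sum was Pou2af1, with 20.7 and 18.8 CPM in knockout cells and 29.9 and 30.2 CPM in wild-type cells, and the other genes of the list were low in every library. Cd79b had 3 to 4.7 CPM, the plasma cell marker Sdc1 2.07 to 3.58 CPM, Cd79a 0.405 to 1.05 CPM, and Ms4a1 and Jchain 0 to 0.207 CPM. The myeloid and dendritic list summed to 0.895 to 2.02 CPM, with Cd14 at 0 in 3 of 4 libraries, and the natural killer list to at most 0.421 CPM. Whether the shifts in these marker sums and in Il9 have a part in the differences below was not tested. The labels give no batch and do not tie replicates to individual animals. The p-values therefore rest on a spread between libraries that may be no more than technical.

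A cis-regulatory feature is shown first, because it lets members be grouped by promoter sequence. Members were named for known roles that include the UPR, so matches to elements of that response are not independent of their choice. The ER stress response element (ERSE) is the site through which ATF6 and the factor NF-Y switch on chaperone genes, and ERSE-II is a shorter relative. RefSeq promoter entries (build GRCm38.p6, 250 bases before to 50 bases after the annotated start) were matched by gene identifier for 32 of the 40 members. The ERSE searched, CCAAT and CCACG separated by any 9 bases, on either strand, was found in 7 of these 32 promoters (21.9%), against 0.137% of all 27025 genes with an entry and 0.178% of the 10125 that were tested for expression. ERSE-II, searched as ATTGG and CCACG separated by any 1 base, on either strand, was found in 2 of 32 (6.25%), against 0.0444% of all genes. The core of the UPR element, TGACGTGG, was found in Ube2j1 and Vcp, against 0.714% of all genes. All the motifs share the letters CCACG on one strand or the other, and no match in a member overlapped another. The windows below run 5′ to 3′ on the gene's strand, from 8 bases before to 8 bases after the match, and capitals mark the fixed letters of ERSE or, for Herpud1, of ERSE-II.
Hspa5 (chr2:34772017-34772051, + strand): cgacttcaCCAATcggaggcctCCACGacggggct
Dnajc3 (chr14:118937819-118937853, + strand): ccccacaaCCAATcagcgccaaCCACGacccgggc
Herpud1 (chr8:94386369-94386395, + strand): gggcgctgATTGGgCCACGttggacac
Creld2 (chr15:88819512-88819546, + strand): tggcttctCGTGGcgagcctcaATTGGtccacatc
Calr (chr8:84847067-84847101, - strand): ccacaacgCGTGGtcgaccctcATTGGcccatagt
Canx (chr11:50325792-50325826, - strand): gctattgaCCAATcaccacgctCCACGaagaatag
Pdia6 (chr12:17266483-17266517, + strand): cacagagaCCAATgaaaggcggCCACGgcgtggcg
Hsp90b1, near match (chr10:86705525-86705559, - strand): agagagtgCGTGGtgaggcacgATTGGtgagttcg
Hsp90b1, far match (chr10:86705630-86705664, - strand): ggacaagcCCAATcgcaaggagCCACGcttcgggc
The matches in Creld2 and Calr and the near match in Hsp90b1 lie on the strand opposite to the gene. Dnajb11 holds its ERSE-II match 7 to 17 bases past the start. A match is a description of letters and does not show that a factor binds there.

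Members spanned a wide range of levels. On the length-corrected FPKM scale (fragments scaled to transcript length and library size, as deposited), the mean over libraries ran from 5.01 for Edem3, an ER mannosidase-like protein, to 385 for Calr, the calcium-binding lectin chaperone, in knockout cells, and from 4.96 for Edem3 to 389.5 for Calr in wild-type cells. P4hb came next in both genotypes, followed by Hsp90b1 and Hspa5 in knockout cells and by Hspa5 and Hsp90b1 in wild-type cells. The sensors were among the low members, with mean levels of 6.86 FPKM for Ern1, 9.05 FPKM for Eif2ak3 and 5.64 FPKM for Atf6 in knockout cells, against 5.06, 8.61 and 5.75 FPKM for the same genes in wild-type cells. The 40 members together summed to 2785 and 2766 FPKM in knockout cells and 2800 and 2794 FPKM in wild-type cells, so the sums lay close together.

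**Figure D1:**
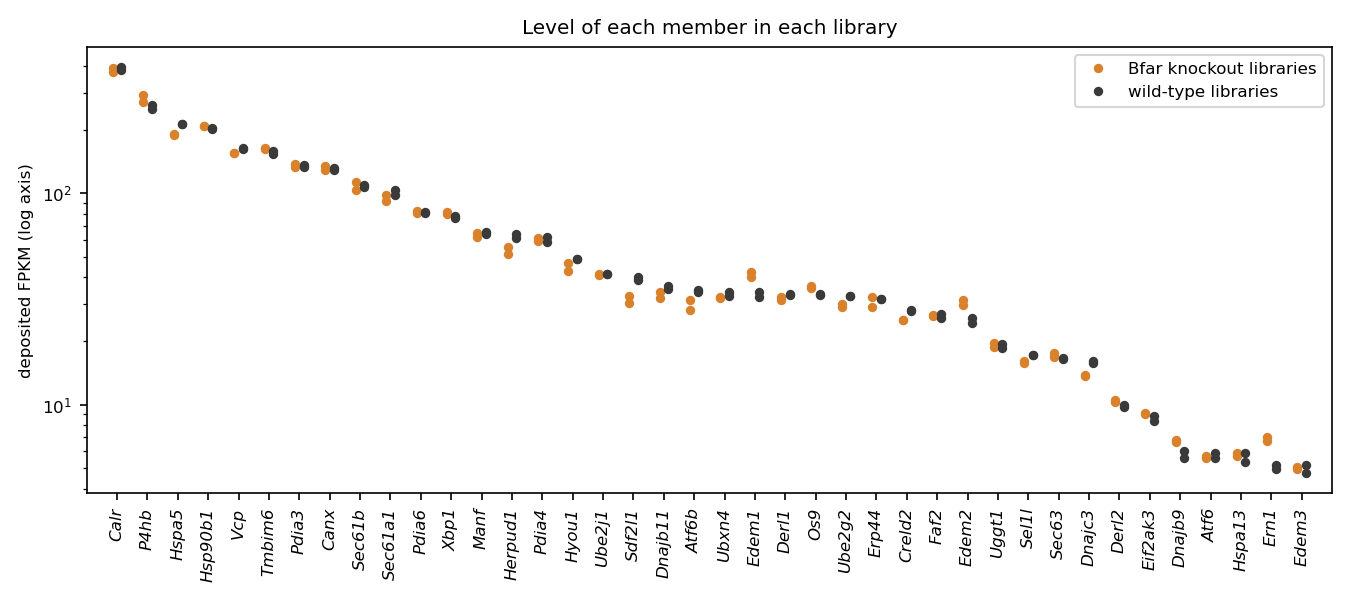
Deposited FPKM (log axis) of each of the 40 members in each library, ordered by the wild-type mean, with the 2 knockout libraries as orange points left of the 2 wild-type libraries in black. Calr is highest and Edem3 lowest in wild-type cells, and the points of the genotypes lie close together for most genes.

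Differences between genotypes in this machinery were small. Of the 40 members, 5 rose in the knockout (Ern1, Edem1, Edem2, Os9 and P4hb) and 6 fell (Sdf2l1, Herpud1, Atf6b, Dnajc3, Hspa5 and Ube2g2). These 11 are 27.5% of the members, against 26.8% of all 12677 genes tested, a share near the background. By direction, 13.6% of all genes tested rose and 13.2% fell. No member reached a fold of 1.5 in either direction. The largest rise was 1.36-fold (Ern1) and in the largest change downward Sdf2l1 fell by 20.4%. The median log2 fold change over the 40 was 0.0, as over all genes, and the median absolute log2 fold change was 0.07, against 0.14 over all genes tested. Members held at least 204 counts in each library, while the filter asks for 10. Neither this median nor the share called was matched for level. For the 29 members not called, the 95% intervals of the log2 fold change lay between -0.27 and 0.45, where Creld2 set the lower end and Dnajb9 the upper. In whole-culture RNA, fewer cells of a type and less RNA per cell cannot be told apart. Of the 11 calls, 5 (Ern1, Edem1, Edem2, Hspa5 and Sdf2l1) held in all 11 alternative analyses. Without knockout replicate 2, 3 members rose and 3 fell, and without wild type replicate 1, 3 rose and 4 fell. Knockout and wild-type CPM did not overlap for 25 members (62.5%), against 63.5% of all genes tested.

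**Figure D2:**
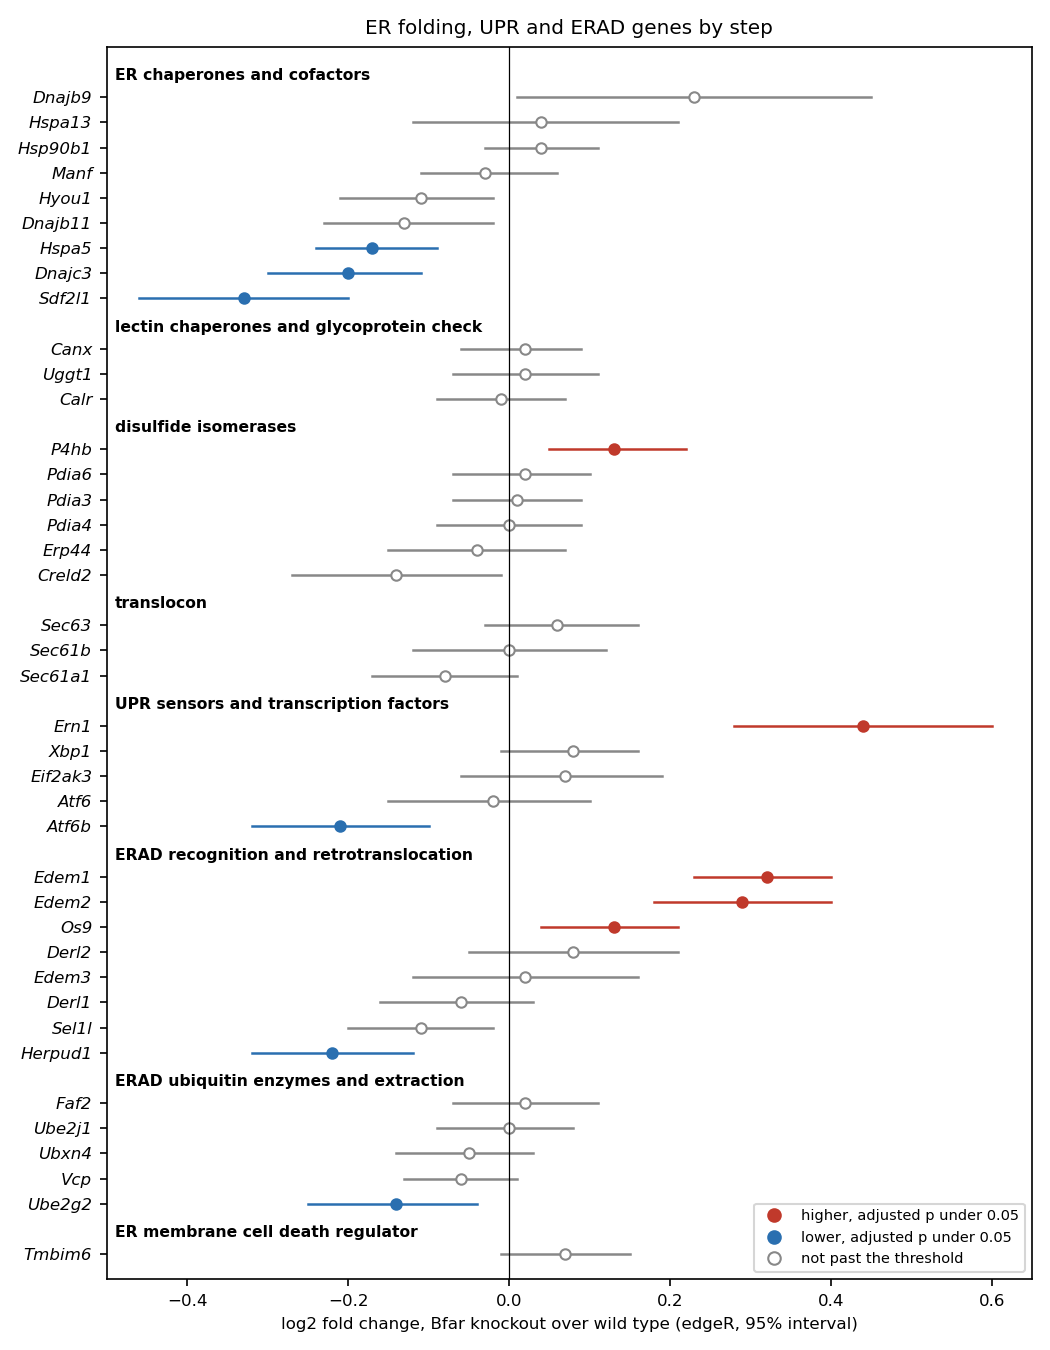
Log2 fold change (knockout over wild type, horizontal axis) of each member with its 95% interval from edgeR, grouped by step. Filled red points rose and filled blue points fell at an adjusted p under 0.05, and open grey points did not pass. The points past the threshold fall among chaperones, disulfide isomerases (P4hb alone), sensors and ERAD factors, while all lectin chaperones and translocon subunits are open.

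Among the 9 ER chaperones and their cofactors, 3 fell and none rose, or 33.3% called against 26.8% of all genes tested. Hspa5 encodes BiP, the abundant Hsp70 of the ER that also holds the UPR sensors inactive. Its level was 486 and 482 CPM in knockout cells, against 543 and 543 CPM in wild-type cells. Both knockout libraries were lower than both wild-type libraries, and the log2 fold change was -0.17 with a standard error of 0.03 over 2 libraries in each genotype (edgeR adjusted p = 0.00231); errors after ± are standard errors for fold changes. Sdf2l1, a cofactor that keeps BiP substrates soluble, had 33.3 and 35.9 CPM in knockout cells, against 44.1 and 42.8 CPM in wild-type cells. Its log2 fold change was -0.33 ± 0.06 (edgeR adjusted p = 0.0011), the largest fall in the set. Dnajc3, which encodes the BiP cochaperone p58IPK, had 71.9 and 72.3 CPM in knockout cells, against 84 and 82.1 CPM in wild-type cells. Its log2 fold change was -0.20 ± 0.05 (edgeR adjusted p = 0.00374), and the DESeq2 adjusted p was 0.0558.

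The other chaperones did not pass. Hyou1, the BiP nucleotide exchange factor, had 210.7 and 193 CPM in knockout cells, against 218 and 218 CPM in wild-type cells (log2 -0.11 ± 0.04, edgeR adjusted p = 0.0746). It passed without knockout replicate 1, with an edgeR adjusted p of 0.0385. Dnajb11, the BiP cochaperone ERdj3, had 66.5 and 62.9 CPM in knockout cells, against 70.9 and 70.5 CPM in wild-type cells (edgeR adjusted p = 0.0674). Dnajb9, the cochaperone ERdj4, which helps BiP to restrain IRE1, had 12.7 and 12.4 CPM in knockout cells, against 11.1 and 10.3 CPM in wild-type cells. Its log2 fold change of 0.23 ± 0.10 had the widest interval, 0.01 to 0.45, and did not pass (edgeR adjusted p = 0.114); 10.8% of its 31-base words also occur in another listed gene, the highest share among members. Hsp90b1, the ER Hsp90 paralog, differed by 0.04 with a 95% interval of -0.03 to 0.11, and Manf, an ER-resident secreted factor, by -0.03 with an interval of -0.11 to 0.06. Hspa13, an Hsp70 family member, differed by 0.04 with an interval of -0.12 to 0.21, and its sign turned to -0.03 without wild type replicate 2.

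No lectin chaperone or glycoprotein checkpoint gene passed. Calr had 764 and 733 CPM in knockout cells, against 766 and 742 CPM in wild-type cells. Canx, the membrane-bound partner of calreticulin, had 581 and 560.5 CPM in knockout cells, against 571 and 558 CPM in wild-type cells. Uggt1, which re-tags misfolded glycoproteins for another round of folding, had 172 and 181 CPM in knockout cells, against 169.7 and 178 CPM in wild-type cells. For each of these genes the genotypes overlapped, and the 95% intervals of the log2 fold change together covered -0.09 to 0.11.

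Among the 6 disulfide isomerases and related oxidoreductases, P4hb alone passed, or 16.7% called against 26.8% of all genes tested. P4hb encodes protein disulfide isomerase, the founding member of its family. It had 693 and 743 CPM in knockout cells, against 640.3 and 669 CPM in wild-type cells (log2 0.13 ± 0.04, edgeR adjusted p = 0.0215). Leaving out knockout replicate 2 ended the call (edgeR adjusted p = 0.238), and so did leaving out wild type replicate 1 (0.194). Testing all genes whatever their counts gave 0.114, and the call was also lost in limma on log2(FPKM + 0.1) (adjusted p = 0.103) or log2(FPKM + 1) (0.1). Pdia3, the isomerase that works with calreticulin and calnexin, and the isomerases Pdia4 and Pdia6 differed by 0.01, 0.00 and 0.02 on the log2 scale, with intervals between -0.09 and 0.1. Erp44, which retains client proteins in the early secretory pathway, had 86 and 77.5 CPM in knockout cells, against 84.3 and 84.2 CPM in wild-type cells, and knockout replicate 2 was the lowest. Creld2, an ER stress-induced protein with isomerase activity, had 34 and 34 CPM in knockout cells, against 37.7 and 37.4 CPM in wild-type cells. Its edgeR adjusted p was 0.0984, while limma on log2(FPKM + 0.1) and on log2(FPKM + 1) gave an adjusted p of 0.0479 each.

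The translocon subunits did not pass. Sec61a1, the channel-forming subunit, had 302 and 283 CPM in knockout cells, against 317 and 300.4 CPM in wild-type cells, and the genotypes overlapped. Sec61b, its small partner, had 54.3 and 59.4 CPM in knockout cells, against 56 and 57.6 CPM in wild-type cells. Sec63, which recruits BiP to the channel, differed by 0.06 on the log2 scale (interval -0.03 to 0.16).

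Of the 5 UPR sensors and transcription factors, 1 rose and 1 fell, or 40% called against 26.8% of all genes tested. Ern1 encodes IRE1, the sensor that splices Xbp1 messenger RNA. Its level was 26.9 and 28.2 CPM in knockout cells, against 20.7 and 19.8 CPM in wild-type cells, and the groups did not overlap. The log2 fold change was 0.44 ± 0.08 (edgeR adjusted p = 0.000542), the largest in the set, and the adjusted p stayed at or below 0.0371 under each of the 11 alternatives. Ern1 lies on chromosome 11, 106397620 to 106487796 (GRCm38). Xbp1, its substrate, had 185.4 and 182 CPM in knockout cells, against 176 and 173 CPM in wild-type cells. The knockout libraries were slightly higher, by 0.08 ± 0.04 on the log2 scale, with an interval of -0.01 to 0.16 and an edgeR adjusted p of 0.171. Xbp1 is listed with more than 1 transcript, and its deposited length, which RSEM weights by the mix of transcripts, was 2258.39 and 2260.2 bases in knockout cells, against 2259.81 and 2264 bases in wild-type cells. These lengths overlap, and gene-level values do not give the spliced share.

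Atf6b, a paralog of the sensor ATF6, had 81.2 and 73.1 CPM in knockout cells, against 89.9 and 88.2 CPM in wild-type cells (log2 -0.21 ± 0.05, edgeR adjusted p = 0.00831). The call depended on knockout replicate 2, the lowest library: without it the log2 fold change was -0.13 (edgeR adjusted p = 0.134). Leaving out wild type replicate 1 (0.0649) also ended it, as did testing all genes whatever their counts (0.0775), DESeq2 (0.0636) and limma on log2(FPKM + 0.1) (0.0541) or log2(FPKM + 1) (0.0523). Atf6 itself had 43 and 42.4 CPM in knockout cells, against 42 and 44.7 CPM in wild-type cells. Eif2ak3, which encodes PERK, the sensor that slows translation, had 40.4 and 41.4 CPM in knockout cells, against 38.1 and 40 CPM in wild-type cells (interval of the log2 fold change -0.06 to 0.19).

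**Figure D3:**
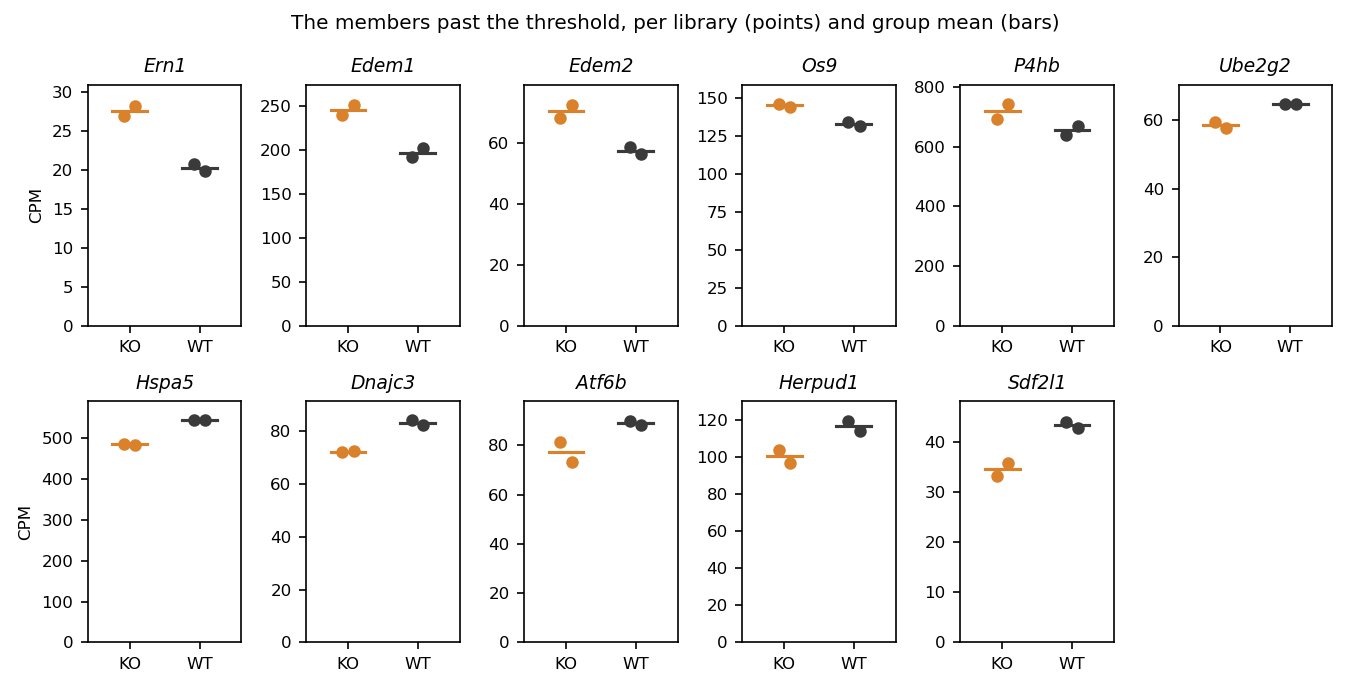
CPM of the 11 members past the threshold (vertical axes start at 0), with knockout (KO) libraries left of wild-type (WT) libraries. Points are libraries and bars are group means. Genotypes do not overlap in any of these panels, which were picked by the calls, and 63.5% of all genes tested do not overlap either. The differences are small beside the level of each gene.

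Of the 8 members of ERAD recognition and retrotranslocation, 3 rose and 1 fell, where 26.8% of all genes tested were called. Of the 3 that rose, Os9 passed in only 3 of 11 alternatives. Edem1, a lectin-like mannosidase that marks glycoproteins for degradation, had 239 and 251 CPM in knockout cells, against 192 and 202 CPM in wild-type cells. Its mean was 245 ± 8.43 CPM in knockout cells and 197 ± 7.33 CPM in wild-type cells (SD, n = 2 each), which is a log2 difference of 0.32 ± 0.04 (edgeR adjusted p = 6.47e-05). Edem2, which starts mannose trimming on glycoproteins, had 68.1 and 72.4 CPM in knockout cells, against 58.7 and 56.1 CPM in wild-type cells (log2 0.29 ± 0.05, edgeR adjusted p = 0.00072). Edem3, their relative, had 33.7 and 33.3 CPM in knockout cells, against 31.7 and 34.4 CPM in wild-type cells, and the genotypes overlapped. Its interval, -0.12 to 0.16, ends below the lower bounds of Edem1 (0.23) and Edem2 (0.18), and the difference between these genes was not tested.

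Os9, the lectin that delivers trimmed glycoproteins to the ligase complex, had 146 and 144 CPM in knockout cells, against 134 and 131 CPM in wild-type cells (log2 0.13 ± 0.04, edgeR adjusted p = 0.0278). That call was lost without any 1 of the libraries, with adjusted p between 0.0858 and 0.162, in DESeq2 (0.176), with no filter on low counts (0.0658) and in limma on log2(FPKM + 0.1) (0.0721) or log2(FPKM + 1) (0.072). Herpud1, an ER membrane protein that organises the degradation complex and is itself a UPR target, went the other way. It had 104 and 96.9 CPM in knockout cells, against 119.5 and 114 CPM in wild-type cells (log2 -0.22 ± 0.05, edgeR adjusted p = 0.0028). Leaving out knockout replicate 2 gave 0.0846. Sel1l, the scaffold of the HRD1 ligase, had 100.5 and 102 CPM in knockout cells, against 109 and 109 CPM in wild-type cells (log2 -0.11 ± 0.04, edgeR adjusted p = 0.072). The derlins, which form part of the exit channel, did not pass. Derl1 differed by -0.06 (interval -0.16 to 0.03) and Derl2 by 0.08 (interval -0.05 to 0.21).

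Of the 5 members that attach ubiquitin or extract substrates, Ube2g2 alone passed, or 20% called against 26.8% of all genes tested. This ubiquitin-conjugating enzyme of ERAD had 59.6 and 57.8 CPM in knockout cells, against 64.7 and 64.9 CPM in wild-type cells (log2 -0.14 ± 0.05, edgeR adjusted p = 0.0429). The call was lost when any 1 library was left out (adjusted p 0.0925 to 0.2), in DESeq2 (0.322) and with no filter on low counts (0.0861). Ube2j1, the conjugating enzyme of the HRD1 complex, had 146 and 148 CPM in knockout cells, against 147 and 147 CPM in wild-type cells. Vcp, the ATPase that pulls substrates into the cytosol, had 521 and 519 CPM in knockout cells, against 541 and 545 CPM in wild-type cells; the libraries did not overlap, and the log2 fold change of -0.06 ± 0.03 did not pass (edgeR adjusted p = 0.206). Its ER-membrane recruiters Ubxn4 and Faf2 differed by -0.05 (interval -0.14 to 0.03) and 0.02 (interval -0.07 to 0.11). Tmbim6, which encodes BAX inhibitor 1, a regulator of cell death in the ER membrane, had 391 and 398 CPM in knockout cells, against 381 and 371 CPM in wild-type cells (log2 0.07 ± 0.04, interval -0.01 to 0.15, edgeR adjusted p = 0.181).

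Grouped by promoter sequence, the 9 members with an ERSE or ERSE-II match included 3 that fell (Hspa5, Dnajc3 and Herpud1), none that rose and 6 that did not pass, where 13.2% of all genes tested fell and 13.6% rose. The call of Dnajc3 was lost in DESeq2 and that of Herpud1 without knockout replicate 2. The median log2 fold change of the 9 members was -0.13. Among the 23 members with a promoter entry and neither element, 2 fell, 5 rose and 16 did not pass, with a median of 0.02. The 8 members without a promoter entry, which include a member that fell, are in neither group. No test was made between these groups. Bearing the element did not go with a fall for each gene. Calr, Canx, Pdia6 and Hsp90b1 have ERSE letters like those printed for Hspa5 and Dnajc3, and their log2 fold changes lay between -0.01 and 0.04. Creld2 (log2 -0.14) and Dnajb11 (log2 -0.13) also did not pass. For each of them both knockout libraries were lower than both wild-type libraries, while for Hsp90b1 both were higher. Such a lack of overlap was seen for 63.5% of all genes tested. Before the start, the distances of genes that fell and genes that did not pass overlapped only in that Pdia6 lay nearer than Dnajc3. The match began 65 bases before the start in Hspa5, 105 in Dnajc3 and 52 in Herpud1. Among genes that did not pass it began at 98 in Pdia6 and 107 for the near match in Hsp90b1. It began at 126 in Creld2, 145 in Canx, 162 in Calr and 212 for the far match in Hsp90b1. The match in Dnajb11, which did not pass, lies 7 to 17 bases past the start and is the nearest to it of all the matches. Whether distance has a part was not tested.

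**Figure D4:**
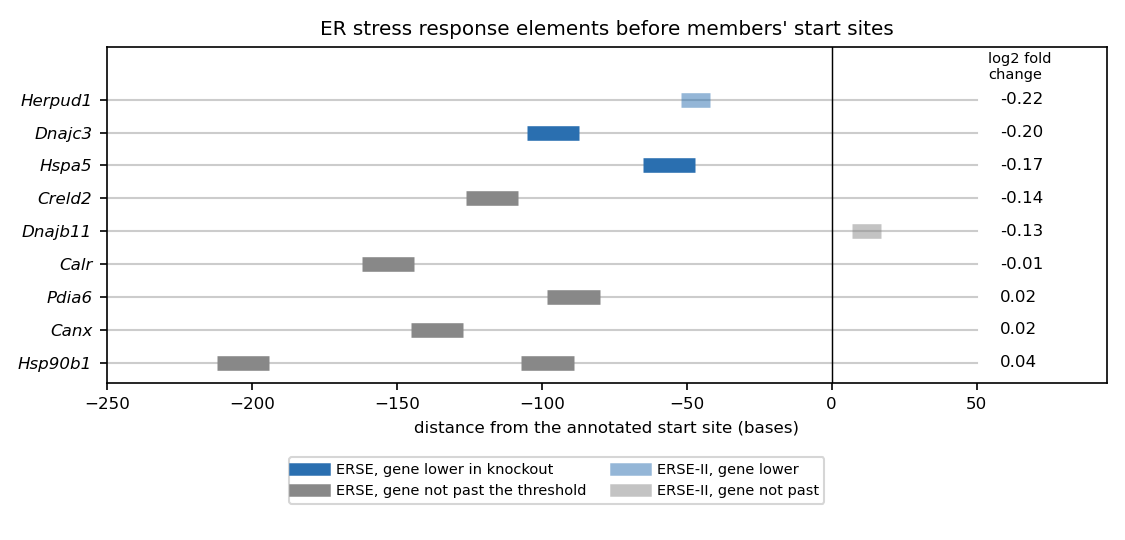
Position of each ERSE match (solid) and ERSE-II match (pale) relative to the annotated start site (horizontal axis, bases) in 9 members, ordered by log2 fold change, which is printed at the right. Blue marks genes that fell in the knockout and grey those that did not pass; the blue genes are the 3 at the top.

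Other genes of the same pathway, in lists drawn up by function, were read from the same fit. These lists were chosen with earlier results of these data known. Of 202 tested genes 16 rose and 28 fell, with Bfar among those that fell, which is 21.8% called against 26.8% of all genes tested. Of 43 oxidoreductases and further folding factors, 4 rose and 2 fell, or 14% called, below the share over all genes. Ero1l, the oxidase that recharges protein disulfide isomerase, had 1005 and 1001 CPM in knockout cells, against 714 and 694 CPM in wild-type cells (log2 0.51 ± 0.03, edgeR adjusted p = 5.79e-08). The reductase and chaperone genes Dnajc10 and Tmx3 rose by 0.19 and 0.21, and Mogs, the glucosidase that trims new glycans, fell by 0.24. Dnajc10 was not past the threshold without wild type replicate 1 (edgeR adjusted p = 0.0687) or knockout replicate 1 (0.0654). Tmx3 was not without knockout replicate 1 (0.0512) or in DESeq2 (0.0635).

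Of 32 genes of N-glycan assembly and transfer, 2 rose and 5 fell, or 21.9% called against 26.8% of all genes tested. Alg11, a mannosyltransferase, rose by 0.39 ± 0.07 (edgeR adjusted p = 0.000608), and Rpn1, a subunit of the oligosaccharyltransferase, fell by 0.21 ± 0.04 (edgeR adjusted p = 0.00103). The glucosyltransferase gene Alg8 fell by 0.30, with a DESeq2 adjusted p of 0.0622 and an edgeR adjusted p of 0.0824 without knockout replicate 2. Magt1, an oxidoreductase of the transferase complex, had 0.17 (edgeR adjusted p = 0.0111), which passed in 4 of 11 alternatives. Of 28 genes of ER targeting and signal peptide cleavage, 2 rose and 4 fell, or 21.4% called. Spcs3, a signal peptidase subunit, rose by 0.23 ± 0.04 (edgeR adjusted p = 0.000355). Get4 fell by 0.26 (edgeR adjusted p = 0.00187), Asna1 by 0.18 (0.00796) and Sgta by 0.17 (0.0154); each encodes a factor for tail-anchored proteins. Asna1 passed in 8 and Sgta in 6 of 11 alternatives.

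Of 38 further ERAD factors, 2 rose and 6 fell, or 21.1% called against 26.8% of all genes tested. March6, the ER membrane ubiquitin ligase whose yeast counterpart is Doa10, had 64.4 and 61.5 CPM in knockout cells, against 123.7 and 120.5 CPM in wild-type cells. Its log2 difference of -0.96 ± 0.05 (edgeR adjusted p = 1.16e-09) was larger in size than that of any of the 40 members, and it passed in all 11 alternatives. Ube2j2, a ubiquitin-conjugating enzyme of the ER membrane, fell by 0.28 ± 0.05 (edgeR adjusted p = 0.000976), although 14.4% of its 31-base words occur in another listed gene. Man1a, a glycan-trimming mannosidase, rose by 0.30 ± 0.04 (edgeR adjusted p = 0.000168). Ngly1, which strips glycans from retrotranslocated proteins, rose by 0.30 (edgeR adjusted p = 0.0129) and passed in 7 of 11 alternatives.

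The list of UPR signalling and the PERK-ATF4 branch had the highest share called of these lists, with 5 of 26 up and 9 down. That is 53.8% against 26.8% of all genes tested, and Bfar is 1 of the 9. Since the lists were chosen with earlier results known, this share is not a test of the branch. Chac1, a glutathione-degrading enzyme induced through ATF4, had 27.3 and 23.7 CPM in knockout cells, against 40.1 and 40.6 CPM in wild-type cells (log2 -0.66 ± 0.07, edgeR adjusted p = 1.02e-05). Trib3, a pseudokinase of the same branch, had 65.4 and 59.7 CPM in knockout cells, against 86.6 and 79.1 CPM in wild-type cells (log2 -0.40 ± 0.06, edgeR adjusted p = 0.000111). Creb3l2, an ER-membrane transcription factor related to ATF6, rose by 0.71 ± 0.08 (edgeR adjusted p = 8.11e-06). Of 35 genes of COPII vesicle export, 1 rose and 2 fell, or 8.57% called. Sec23a, a coat subunit, rose by 0.25 (edgeR adjusted p = 0.00574), and the call was lost when knockout replicate 1 was left out (0.0644) and in DESeq2 (0.108). The falls of Ctage5 (log2 -0.12) and Sec16b (log2 -0.44) passed in 4 of 11 alternatives each. Sec22b, a SNARE of these vesicles, did not pass (log2 0.18 ± 0.06, edgeR adjusted p = 0.0514), but passed with RLE size factors (0.0495), with a minimum mean of 1 CPM (0.0442) and with the replicate block (0.0299).

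**Figure D5:**
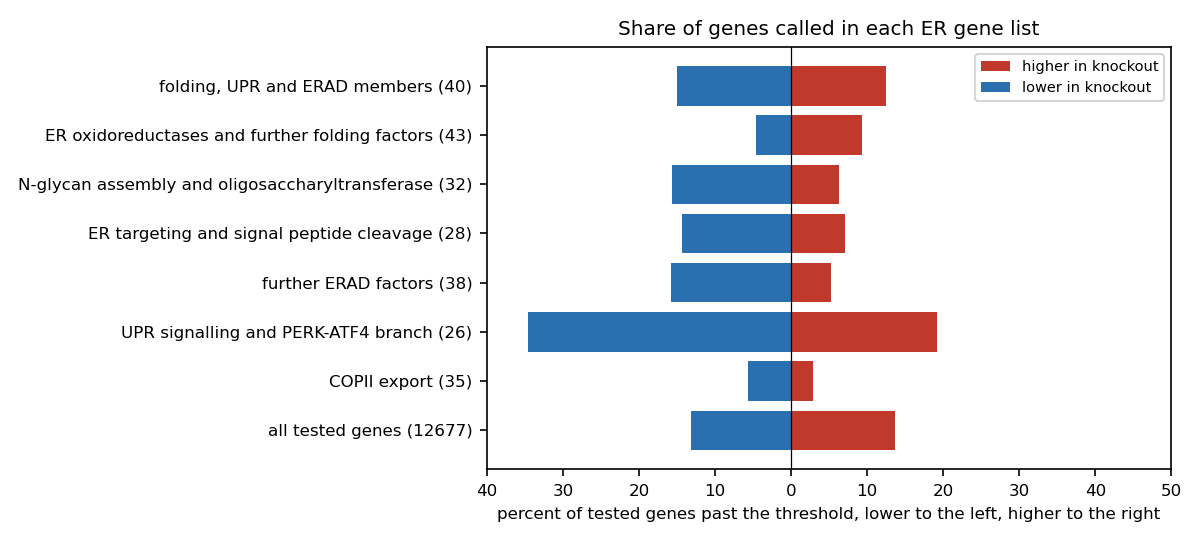
Percent of tested genes past the threshold (horizontal axis) in each list, with genes lower in the knockout in blue to the left and genes higher in red to the right; the number tested is in brackets. The bars of the 40 members (5 higher, 6 lower) are about as long as those of all tested genes (13.6% higher, 13.2% lower), and the UPR signalling list extends furthest to both sides.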

How the data were processed

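RNA was sequenced on a HiSeq instrument, per the labels' protocols. Bowtie, RSEM and the build GRCm38 (mm10) are named in the submitters' processing notes. Those notes and the labels state neither a strand setting nor an annotation release. The deposited tables, per the file headers, hold expected counts, which RSEM estimates and which need not be whole, the authors' FPKM values, and a gene length in bases. Genes absent from a table were set to 0.

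Expected counts were rounded and tested with edgeR 4.0.16 (R 4.3.3): quasi-likelihood test, two-sided, genotype as the only factor, TMM factors, filterByExpr (at least 10 counts, 15 in total), and adjustment by Benjamini-Hochberg over 12677 genes at 0.05. Standard errors are the absolute log2 fold change divided by the square root of F. Library sizes scaled by TMM underlie the CPM values. DESeq2 1.42.0 and limma 3.58.1 served as alternatives. With 2 libraries per group, single values could not reach 0.05 by permutation. No libraries were duplicates (within genotypes, chi-square divided by its degrees of freedom was 2.55 for knockout and 2.21 for wild type).

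Shared 31-base words were counted in GENCODE M21 transcripts. Named genes are all members, Bfar, and up to 4 tested genes with the smallest adjusted p in each functional list. Members and lists were chosen with earlier results of these data known. List symbols that the tables spell differently were matched by gene identifier.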

Additional observations from a re-analysis of the deposited data

How the results depend on the processing

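The number of calls depended on the analysis. The 3398 genes called became 1569 in DESeq2, 1928 with no filter on low counts and 1441 to 2355 when 1 library was left out (1441 without knockout replicate 2, 1894 without knockout replicate 1, 2139 without wild type replicate 1). The 5 members that rose became 3 with no filter, 3 in limma on log2(FPKM + 0.1), 3 on log2(FPKM + 1) and 3 to 4 with a library left out (3 without knockout replicate 2 or wild type replicate 1). The 6 that fell became 3 in DESeq2 and 3 to 6 with a library left out (3 without knockout replicate 2). The other ER genes that rose (16) became 6 in DESeq2 and 6 to 11 with a library left out (6 without knockout replicate 1, 10 without knockout replicate 2 or wild type replicate 1), and those that fell (28) became 13 in DESeq2, 14 with no filter and 11 to 18 with a library left out (11 without knockout replicate 2, 15 without wild type replicate 1, 18 without either of the others). Fewer samples entered the fits that left out a library; the cause of the other shifts was not tested. RLE size factors changed no call among the members, and neither did a minimum mean of 1 CPM.

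No called member changed direction under any of the 11 alternatives. Uncalled members changed sign when a library was left out, with log2 fold changes of -0.07 to 0.02 for Atf6, -0.04 to 0.02 for Calr, -0.01 to 0.04 for Canx, -0.04 to 0.08 for Edem3, -0.12 to 0.03 for Erp44, -0.01 to 0.04 for Faf2, -0.03 to 0.11 for Hspa13, -0.01 to 0.03 for Pdia3 and -0.02 to 0.06 for Uggt1. The ranges of Pdia4 (-0.04 to 0.04), Sec61b (-0.06 to 0.07) and Ube2j1 (-0.01 to 0.01) also crossed 0.

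Replicate numbers are shared between genotypes, but the labels do not say that they pair samples, and the deviations of same-numbered libraries correlated at 0.1 over 9891 genes. With the replicate block, 3952 genes were called. The members called under the block were 13: the 11 called without it, plus Hyou1 (edgeR adjusted p = 0.0251) and Dnajb11 (0.0413). In these libraries 3 counts equal 0.152 to 0.157 CPM, and the lowest member, Dnajb9, had 10.3 CPM or more.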
